A study of Mus musculus with 23 samples.

Results

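The SRF-dependent and nuclear receptor immediate-early genes are described here as 10 genes: *Srf*, *Egr1*, *Egr2*, *Egr3*, *Ier2*, *Ier3*, *Ier5*, *Nr4a1*, *Nr4a2* and *Nr4a3*. They were taken by name, together with every array probe whose accession maps to them, which gave 13 of 33391 probes with an accession and 10 of the 26512 genes tested. Bone marrow-derived macrophages (BMDM) were grown with M-CSF from marrow of male mice on a C57BL/6 (C57BL/6J in the study's methods) background and were moved to medium without M-CSF before treatment. Wild-type (wt) mice were 12 or 13 weeks old, MK2-/- mice, which lack the kinase MK2, were 10 to 13 weeks old, and MK2/3-/- mice, which lack MK2 and its relative MK3, were 11 to 14 weeks old. Cells were kept for 120 min in medium alone or with 100 ng/ml LPS, a bacterial cell wall component. The RNA of each sample was hybridized with 1 dye to its own Agilent array, with 4 arrays per group and 3 in the group of MK2-/- BMDM in medium. Levels are log2 signals after quantile normalization, so that a difference of 1 is a doubling, and every difference is given with its standard error (SE).

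Immediate-early genes are transcribed soon after a stimulus by factors that the cell already holds. SRF binds the CArG box, either with ELK factors, which ERK signalling activates, or with MRTF coactivators, which respond to actin, and it drives its own gene and many EGR and IER genes. The NR4A genes encode orphan nuclear receptors, are induced in many cells through CREB, and are known in macrophages as restraints on inflammatory genes. MK2 and MK3 are activated by p38 and act on the stability and translation of inflammatory mRNAs.

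The sequences before the start sites are printed for the genes in which known sites of SRF, CREB and NF-kB can be read. Windows from 250 bases before to 50 bases after the RefSeq start (build GRCm38.p6) were searched on both strands for 7 of the 10 genes, those other than *Egr1*, *Egr3* and *Ier2*. The motifs were the CArG box, TGACG (the core of a CREB site), CCGGAA (an ETS core, as ELK factors bind), GCGNGGGCG (the EGR site), the NF-kB site and AAAGGTCA (the NBRE of NR4A receptors). Positions count from the start site, with -1 for the base just before it. Of each window the 250 bases before the start are printed 5′ to 3′ from RefSeq. In *Srf* and *Egr2*, capitals mark the CArG boxes:

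Srf (chr17:46556163-46556412, minus strand): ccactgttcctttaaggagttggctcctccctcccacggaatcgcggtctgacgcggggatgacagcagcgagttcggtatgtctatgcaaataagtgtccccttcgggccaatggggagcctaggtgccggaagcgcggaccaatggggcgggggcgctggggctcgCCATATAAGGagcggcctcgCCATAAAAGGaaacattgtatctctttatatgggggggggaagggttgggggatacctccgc

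Egr2 (chr10:67537619-67537868, plus strand): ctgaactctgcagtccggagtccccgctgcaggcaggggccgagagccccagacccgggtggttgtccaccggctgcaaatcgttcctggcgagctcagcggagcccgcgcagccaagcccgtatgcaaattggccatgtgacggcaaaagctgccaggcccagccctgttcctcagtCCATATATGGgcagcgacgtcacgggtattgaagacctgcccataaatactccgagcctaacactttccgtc

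*Srf* held 2 CArG boxes, from -82 to -73 and from -62 to -53. It also held an ETS core from -122 to -117, an EGR site from -101 to -93 and a TGACG from -201 to -197. For *Egr2* the table lists 5 starts, and 4 of their windows held a CArG box, in the window printed from -72 to -63, with TGACG motifs from -111 to -107 and from -55 to -51. Of all 32851 windows, 1.63% held a CArG box. In the NR4A genes, capitals mark TGACG or its complement CGTCA:

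Nr4a1 (chr15:101266596-101266845, plus strand): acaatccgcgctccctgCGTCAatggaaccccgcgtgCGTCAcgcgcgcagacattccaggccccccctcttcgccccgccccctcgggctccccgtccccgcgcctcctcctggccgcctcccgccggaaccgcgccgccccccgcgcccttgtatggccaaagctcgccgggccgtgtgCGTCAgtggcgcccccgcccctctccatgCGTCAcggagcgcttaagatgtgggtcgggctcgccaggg

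Nr4a2 (chr2:57124004-57124253, minus strand): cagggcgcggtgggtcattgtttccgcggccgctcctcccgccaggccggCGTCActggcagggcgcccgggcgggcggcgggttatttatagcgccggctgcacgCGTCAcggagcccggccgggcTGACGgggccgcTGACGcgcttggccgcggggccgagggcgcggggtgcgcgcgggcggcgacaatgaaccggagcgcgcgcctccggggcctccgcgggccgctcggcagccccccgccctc

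Nr4a3 (chr4:48045055-48045304, plus strand): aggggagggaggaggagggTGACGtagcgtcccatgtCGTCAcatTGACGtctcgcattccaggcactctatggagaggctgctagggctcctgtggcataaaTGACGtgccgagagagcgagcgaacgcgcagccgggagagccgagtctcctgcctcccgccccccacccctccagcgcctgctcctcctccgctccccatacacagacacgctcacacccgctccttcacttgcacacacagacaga

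Each NR4A window held 4 TGACG motifs and no CArG box, where 20.8% of all windows held at least 1 TGACG. *Nr4a1* also held an ETS core from -125 to -120, an EGR site from -60 to -52 and an NF-kB match across the start, from -3 to 7. *Nr4a2* held an EGR site from -74 to -66. In *Ier3*, capitals mark the NF-kB site:

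Ier3 (chr17:35821463-35821712, plus strand): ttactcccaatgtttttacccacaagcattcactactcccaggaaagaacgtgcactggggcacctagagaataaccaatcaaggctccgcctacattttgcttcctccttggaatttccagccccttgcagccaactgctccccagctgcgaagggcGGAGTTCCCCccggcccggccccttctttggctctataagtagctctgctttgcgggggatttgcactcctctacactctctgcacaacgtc

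The NF-kB site of *Ier3* lay from -92 to -83, and 4.51% of all windows held one. No window of the 7 genes held an NBRE (1.51% of all windows did), and neither the *Ier5* window nor the first *Egr2* window held any of the motifs. The ETS core and the EGR site were in 14.9% and 5.55% of all windows. The only motifs that overlapped were ETS cores on opposite strands in the second *Egr2* window. A match describes letters and not binding.

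The labels were checked on the targeted genes and on cell markers. *Mapkapk2*, which encodes MK2, had a log2 signal of 12.22 ± 0.505 (SD, n = 4) for wt, 8.91 ± 0.172 (n = 3) for MK2-/- and 8.72 ± 0.156 (n = 4) for MK2/3-/- cells kept in medium. After LPS it read 14.77 for wt, 11.96 for MK2-/- and 11.76 for MK2/3-/- cells. After LPS the signal of *Mapkapk3*, which encodes MK3, was below that of wt in MK2/3-/- cells (log2 difference -3.31, limma adjusted p = 1.17e-09). In medium that difference was -1.62 (limma adjusted p = 5.87e-05). In MK2-/- cells after LPS *Mapkapk3* differed from wt by -0.03 (limma adjusted p = 0.993). All 7 measured macrophage markers were well above background on every array, with a log2 of their summed signal from 19.15 to 19.88. The sums of other marker lists reached 14.13 for 5 neutrophil and 11.16 for 3 T cell markers. They reached 6.87 for 3 B cell and 5.46 for 3 mast cell markers. Of these, 4 neutrophil markers and 1 T cell marker were well above background on every array. On no array was this so for *Cd8a* and 1 B cell marker. The sum of 3 dendritic cell markers lay between 5.90 and 8.32 in medium and between 9.87 and 10.92 after LPS. Of the 3, 1 was well above background on every array and *Xcr1* on 1 of 23 arrays. The part of this sum in the LPS differences was not tested. All arrays of a genotype lay on 1 slide, and all medium arrays in 1 of its rows and all LPS arrays in the other, so that slide and genotype, and row and treatment, cannot be told apart. Medium and LPS arrays were taken as pairs from 1 culture by a letter in the array names, by which the third MK2-/- medium array belongs with the fourth LPS array and is counted to the fourth culture. In such bulk samples fewer cells of a type and less RNA per cell cannot be told apart either.

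LPS raised *Egr2*, *Ier2*, *Ier3* and *Nr4a3* in all 3 genotypes, and *Egr1* and *Egr3* passed the test in both knockouts. At an adjusted p under 0.05 (limma) 4 of the 10 genes rose in wt BMDM, 6 passed upward without MK2 and 6 passed upward without MK2 and MK3, where 8.16%, 8.41% and 11.9% of all genes rose. The 6 include *Egr3*, which was near background in both knockouts, and without it they are 5. None of the 10 fell at that threshold, where 8.78%, 9.98% and 12.8% of all genes fell. The median log2 difference of the 10 genes was 1.23, 1.54 and 1.49 in the same order, against 0.00539, -0.0099 and -0.0229 over all genes. Each median of the 10 lies between the differences of *Egr3* and *Ier2*, so that it depends on a gene near background. All LPS arrays lay above all medium arrays for 5, 5 and 6 of the 10 genes, and for 11.3%, 16% and 11.8% of all genes. The 5 in wt and the 6 in MK2/3-/- BMDM include *Egr3*. Of the 16 differences that passed, 13 had the smallest two-sided exact permutation p that these groups allow, 0.0286. The others, *Egr1*, *Egr3* and *Ier2* in MK2-/- BMDM, had an exact p of 0.0857, 0.114 and 0.0571. The smallest p restates that the arrays of differences already picked by limma do not overlap, so that it is a description.

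**Figure D1:**
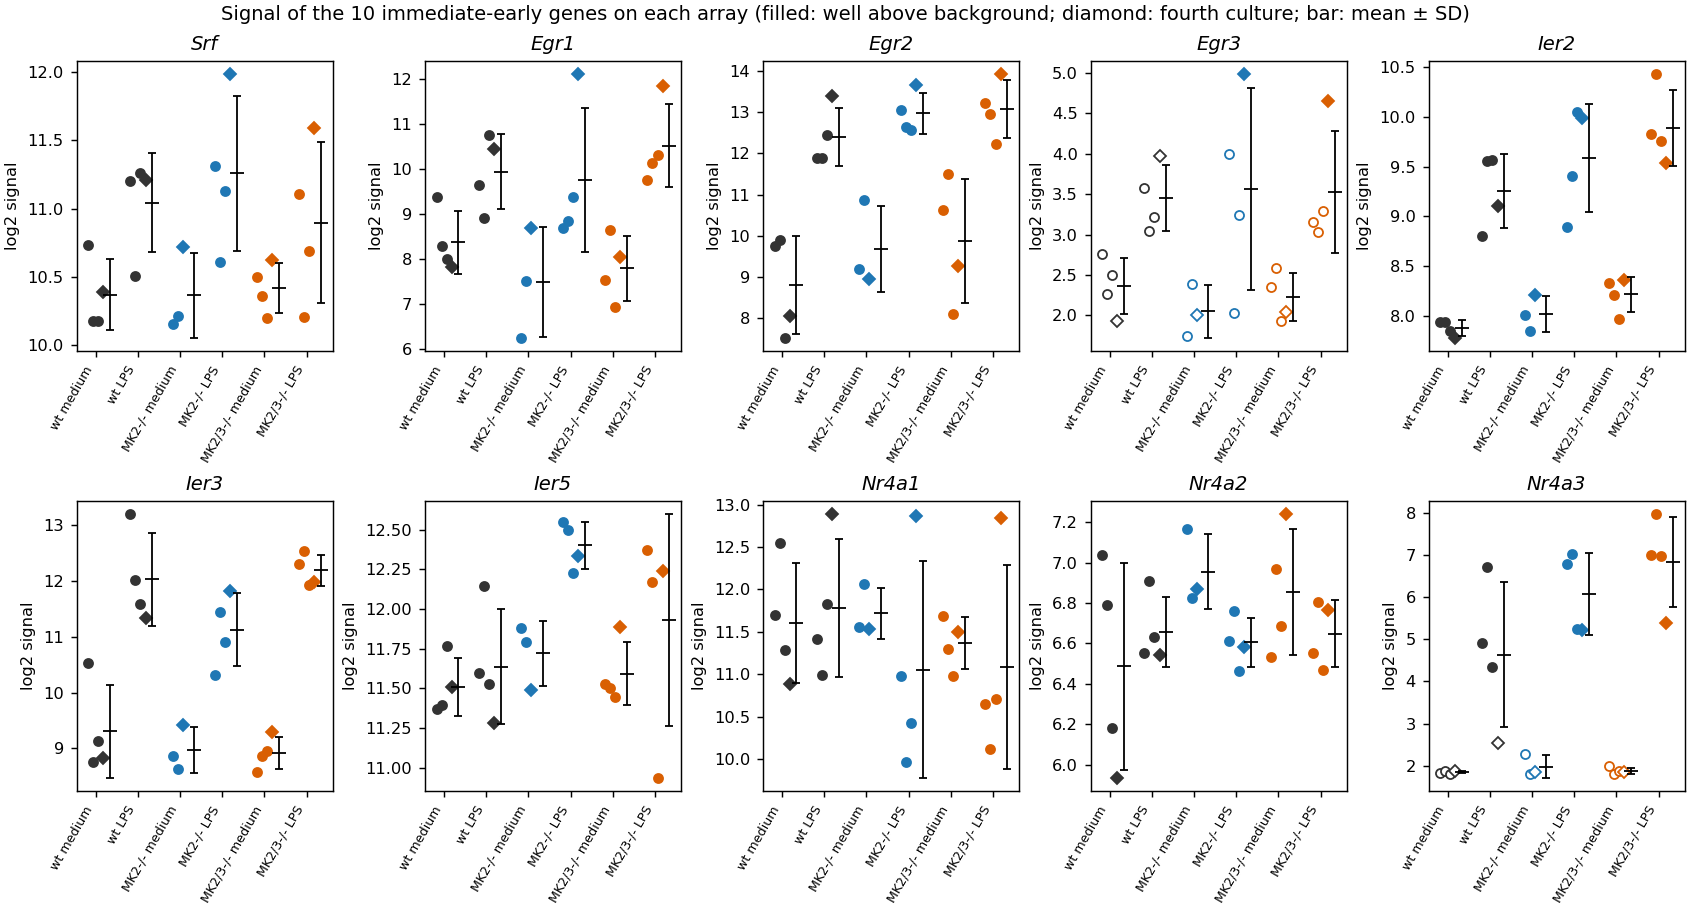
The log2 signal of each gene is plotted for every array by group, with diamonds for the fourth culture, open symbols where the probe was not well above background, and bars for the mean ± SD. *Egr2*, *Ier2* and *Ier3* are separated by treatment in each genotype, whereas the *Nr4a1* groups overlap and their highest LPS array is a diamond in each genotype.

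*Srf* (NM_020493) gave small differences. In wt BMDM its log2 signals were 10.73, 10.18, 10.18 and 10.39 in medium and 11.20, 10.50, 11.26 and 11.21 after LPS. The MK2-/- arrays read 10.16, 10.21 and 10.72 in medium and 11.31, 10.61, 11.13 and 11.98 with LPS. Those of MK2/3-/- cells read 10.50, 10.36, 10.20 and 10.62 in medium and 11.11, 10.20, 10.69 and 11.59 with LPS. The second culture gave the lowest LPS array in each genotype, and the groups overlapped in all 3. The differences were 0.67 ± 0.287 for wt (adjusted p = 0.129), 0.90 ± 0.31 for MK2-/- (adjusted p = 0.0506) and 0.48 ± 0.287 for MK2/3-/- cells (adjusted p = 0.256). With the medium and LPS samples of a culture as a block the MK2-/- difference passed (adjusted p = 0.017), as it did for *Ier5*, which gave 8 of the 10 genes in place of 6 (of all genes 23.5%). A second *Srf* probe gave 0.59 ± 0.176 for wt (adjusted p = 0.0232 over all probes), 0.68 ± 0.19 for MK2-/- (adjusted p = 0.0153) and 0.45 ± 0.176 for MK2/3-/- cells (adjusted p = 0.067). In the same fit over all probes the probe used gave an adjusted p of 0.123, 0.0489 and 0.25. For *Srf*, *Ier5* and *Nr4a2*, which have 2 probes each, the probe used was the one with the higher LPS difference in wt BMDM, so that this difference is given as a description.

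Among the EGR genes, which encode zinc finger factors, *Egr2* had the largest differences. *Egr2* (NM_010118) read 9.75, 9.89, 7.53 and 8.06 in wt BMDM in medium and 11.88, 11.90, 12.44 and 13.39 after LPS. For MK2-/- cells the signals were 9.21, 10.88 and 8.95 without and 13.05, 12.63, 12.57 and 13.65 with LPS. For MK2/3-/- cells they were 10.63, 11.50, 8.11 and 9.26 without and 13.23, 12.95, 12.23 and 13.92 with LPS. Treated and untreated arrays did not overlap in any genotype, and the medium arrays were spread more widely than the LPS arrays. It rose by 3.60 ± 0.672 for wt (12.1-fold, adjusted p = 0.000657), 3.30 ± 0.726 for MK2-/- (9.83-fold, adjusted p = 0.00264) and 3.21 ± 0.672 for MK2/3-/- cells (9.24-fold, adjusted p = 0.00127). Without the fourth culture of each genotype the MK2-/- difference was 2.71 and did not pass (adjusted p = 0.0625).

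*Egr1* (NM_007913), the best known EGR factor, read 9.38, 8.29, 7.99 and 7.83 in wt BMDM in medium and 9.65, 8.91, 10.75 and 10.44 after LPS. MK2-/- cells gave 6.25, 7.51 and 8.69 before and 8.68, 8.84, 9.36 and 12.10 after LPS. MK2/3-/- cells gave 7.53, 8.64, 6.94 and 8.04 before and 9.75, 10.14, 10.30 and 11.85 after LPS. The groups were apart in MK2/3-/- BMDM and overlapped in the others. *Egr1* rose by 2.72 ± 0.7 in MK2/3-/- (6.59-fold, adjusted p = 0.00657) and by 2.26 ± 0.756 in MK2-/- BMDM (4.79-fold, adjusted p = 0.0431), and the wt difference was 1.57 ± 0.7 (adjusted p = 0.153). The MK2-/- difference was 1.48 without the fourth LPS array (adjusted p = 0.135) and 1.64 without the first medium array (adjusted p = 0.227). The responses of MK2/3-/- and wt BMDM differed by 1.15 (95% interval -0.92 to 3.23, unadjusted p = 0.259).

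*Egr3* (NM_018781) lay near background. No medium array had it well above background (1.75 to 2.76), and neither did the wt LPS arrays, which read 3.58, 3.04, 3.22 and 3.97. After LPS it read 3.99, 2.03, 3.24 and 4.98 in MK2-/- and 3.15, 3.03, 3.29 and 4.65 in MK2/3-/- BMDM, and only the fourth array of each was well above background. The fitted levels passed the test in MK2-/- (adjusted p = 0.0389) and MK2/3-/- BMDM (adjusted p = 0.0438) but not without the fourth culture (adjusted p = 0.161 and 0.14). No size of the difference is given, because the LPS means lay below the lowest signal well above background.

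*Ier2* (NM_010499), which encodes a nuclear protein of early growth responses, rose in each genotype. It read 7.93, 7.94, 7.85 and 7.78 in wt BMDM in medium and 8.80, 9.56, 9.57 and 9.10 after LPS. The MK2-/- arrays read 8.01, 7.84 and 8.20 in medium and 8.90, 9.40, 10.05 and 9.99 with LPS. Those of MK2/3-/- cells read 8.33, 8.21, 7.96 and 8.36 in medium and 9.83, 10.43, 9.76 and 9.54 with LPS. Every LPS array lay above every medium array of any genotype. The rise was 1.38 ± 0.237 for wt (2.61-fold, adjusted p = 0.00028), 1.57 ± 0.256 for MK2-/- (2.96-fold, adjusted p = 0.000162) and 1.68 ± 0.237 for MK2/3-/- cells (3.2-fold, adjusted p = 2.3e-05).

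*Ier3* (NM_133662), an NF-kB target that protects cells from death, read 10.54, 8.75, 9.13 and 8.82 in wt BMDM in medium and 13.20, 12.01, 11.58 and 11.33 after LPS. For MK2-/- cells the signals were 8.87, 8.62 and 9.43 without and 10.32, 11.45, 10.91 and 11.83 with LPS. For MK2/3-/- cells they were 8.58, 8.86, 8.95 and 9.29 without and 12.32, 12.53, 11.93 and 11.99 with LPS. The first wt culture was the highest of its genotype with and without LPS, and treated and untreated arrays were apart in each genotype. *Ier3* rose by 2.72 ± 0.414 for wt (6.6-fold, adjusted p = 8.16e-05), 2.15 ± 0.448 for MK2-/- (4.45-fold, adjusted p = 0.00163) and 3.27 ± 0.414 for MK2/3-/- cells (9.67-fold, adjusted p = 6.45e-06). Within cultures the change was 1.45 to 2.83 in MK2-/- and 2.71 to 3.74 in MK2/3-/- BMDM.

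*Ier5* (NM_010500), whose protein is known to act on heat shock factor 1, was measured by probes that disagreed. By the probe used it read 11.37, 11.40, 11.76 and 11.51 in wt BMDM in medium and 11.60, 12.14, 11.53 and 11.28 after LPS. MK2-/- cells gave 11.88, 11.79 and 11.49 before and 12.55, 12.50, 12.22 and 12.34 after LPS. MK2/3-/- cells gave 11.53, 11.50, 11.45 and 11.89 before and 12.37, 12.17, 10.94 and 12.24 after LPS. The groups were apart in MK2-/- BMDM alone. The differences were 0.13 ± 0.246 for wt (adjusted p = 0.838), 0.68 ± 0.266 for MK2-/- (adjusted p = 0.0872) and 0.34 ± 0.246 for MK2/3-/- cells (adjusted p = 0.365). The MK2-/- difference passed with cultures as blocks (adjusted p = 0.0407), and that of MK2/3-/- BMDM was 0.67 without the third LPS array (adjusted p = 0.00972).

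By the second probe *Ier5* read 9.08, 9.09, 9.87 and 9.69 in wt BMDM in medium and 8.55, 8.91, 8.99 and 8.68 after LPS. The MK2-/- arrays read 9.67, 9.66 and 10.17 in medium and 9.46, 9.49, 9.74 and 9.26 with LPS. Those of MK2/3-/- cells read 10.42, 9.88, 10.14 and 10.21 in medium and 10.28, 9.99, 10.05 and 10.26 with LPS. Every MK2/3-/- array lay above every wt array. By this probe *Ier5* fell by 0.65 ± 0.186 with LPS in wt BMDM (adjusted p = 0.0187 over all probes). After LPS it was higher in MK2/3-/- than in wt BMDM by 1.36 ± 0.186 (adjusted p = 0.000931), where the probe used differed by 0.29 ± 0.246 (adjusted p = 0.659). In medium the second probe already differed between these genotypes by 0.73 ± 0.186 (adjusted p = 0.336). Its LPS responses in the 2 genotypes differed by 0.63 ± 0.263 (adjusted p = 0.984). Which transcripts each probe detects was not tested.

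**Figure D2:**
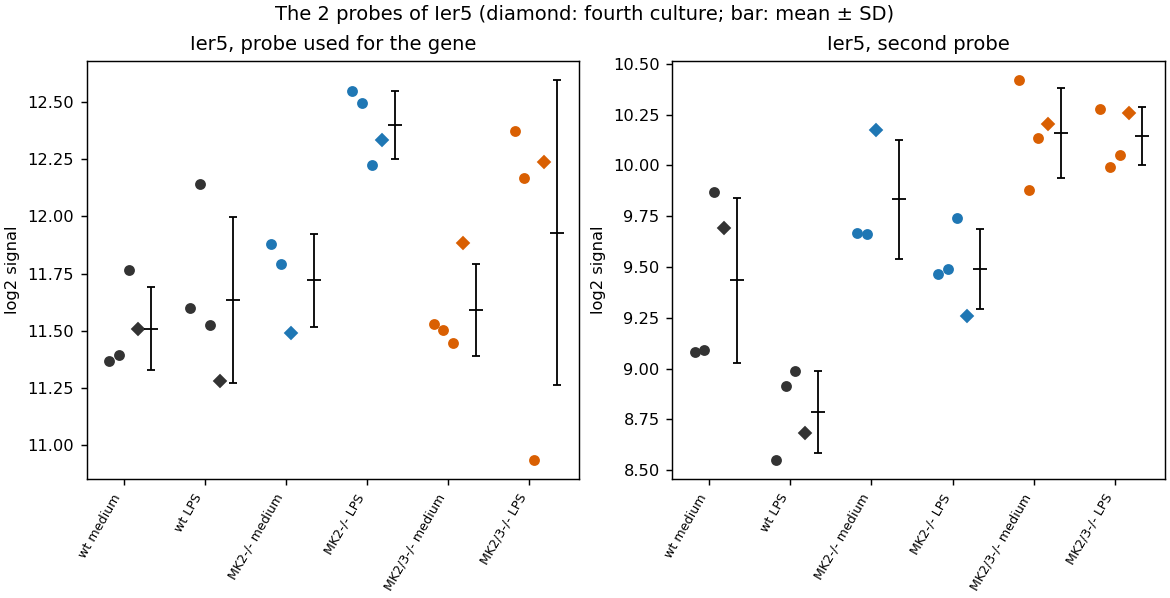
The log2 signals of both *Ier5* probes are plotted for every array by group, with diamonds for the fourth culture and bars for the mean ± SD. By the second probe the MK2/3-/- arrays, from 9.88 to 10.42, lie above all wt arrays, and by the probe used they overlap with them.

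Of the nuclear receptors, *Nr4a3* rose with LPS, and *Nr4a1* and *Nr4a2* gave no difference past the threshold. *Nr4a3* (NM_015743, encoding NOR1) stayed below the well-above-background call on all medium arrays (1.80 to 2.29). The wt LPS arrays read 4.92, 6.71, 4.35 and 2.54. Those of MK2-/- cells read 6.79, 7.02, 5.25 and 5.22, and those of MK2/3-/- cells read 6.98, 7.96, 6.98 and 5.38. The fourth array was the lowest in each genotype, and that of wt BMDM was not well above background. It was at least 2.19-fold higher with LPS for wt (adjusted p = 0.00414), at least 4.48-fold higher for MK2-/- (adjusted p = 0.000234) and at least 8.54-fold higher for MK2/3-/- cells (adjusted p = 8.42e-06), taking the medium arrays at the lowest signal well above background. The wt difference did not pass after normexp background correction (adjusted p = 0.0959), with only the groups compared in the fit (adjusted p = 0.0557) or by the methods' t-test (adjusted p = 0.1).

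*Nr4a1* (NM_010444, encoding NUR77) was well expressed in medium. It read 11.70, 12.54, 11.28 and 10.89 in wt BMDM in medium and 11.41, 10.99, 11.83 and 12.88 after LPS. For MK2-/- cells the signals were 11.56, 12.07 and 11.53 without and 10.97, 9.96, 10.42 and 12.86 with LPS. For MK2/3-/- cells they were 11.69, 11.30, 10.98 and 11.50 without and 10.65, 10.12, 10.71 and 12.84 with LPS. The fourth LPS array was the highest of its group in each genotype, by more than the range of the other LPS arrays, while the medium array of the same culture was not the highest. The differences were 0.17 ± 0.595 for wt (adjusted p = 0.926), -0.67 ± 0.643 for MK2-/- (adjusted p = 0.572) and -0.29 ± 0.595 for MK2/3-/- cells (adjusted p = 0.806). Without the fourth culture of each genotype they were -0.43 (adjusted p = 0.548), -1.36 (adjusted p = 0.0377) and -0.83 (adjusted p = 0.127), so that *Nr4a1* was lower with LPS in MK2-/- BMDM at the threshold only in that setting, which was chosen after seeing the data.

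**Figure D3:**
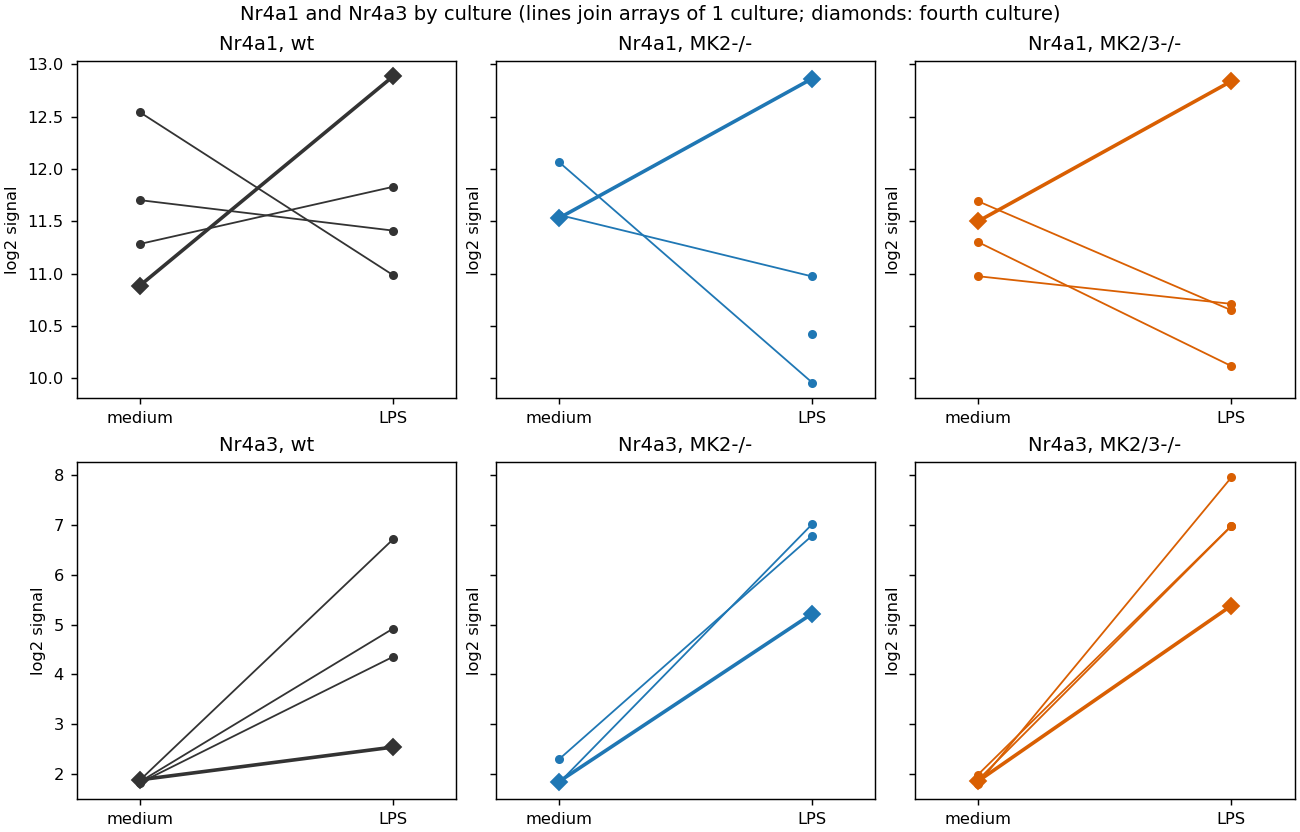
The log2 signals of *Nr4a1* and *Nr4a3* in medium and after LPS are joined for each culture by genotype, with diamonds for the fourth culture. *Nr4a1* is higher after LPS in the fourth culture of each genotype, by 1.33 to 2.00, and *Nr4a3* of the same LPS arrays is the lowest of its group.

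*Nr4a2* (NM_013613, encoding NURR1) read 7.04, 6.79, 6.18 and 5.94 in wt BMDM in medium and 6.55, 6.91, 6.63 and 6.54 after LPS. MK2-/- cells gave 7.17, 6.83 and 6.87 before and 6.61, 6.76, 6.47 and 6.58 after LPS. MK2/3-/- cells gave 6.53, 6.97, 6.69 and 7.24 before and 6.55, 6.81, 6.47 and 6.77 after LPS. The LPS arrays lay below all medium arrays in MK2-/- BMDM, as for 16.6% of all genes, and overlapped with them in the other 2 genotypes. The differences were 0.17 ± 0.203 for wt (adjusted p = 0.691), -0.35 ± 0.22 for MK2-/- (adjusted p = 0.328) and -0.21 ± 0.203 for MK2/3-/- cells (adjusted p = 0.526). The second *Nr4a2* probe gave -0.02, -0.55 and 0.02, of which none passed.

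**Figure D4:**
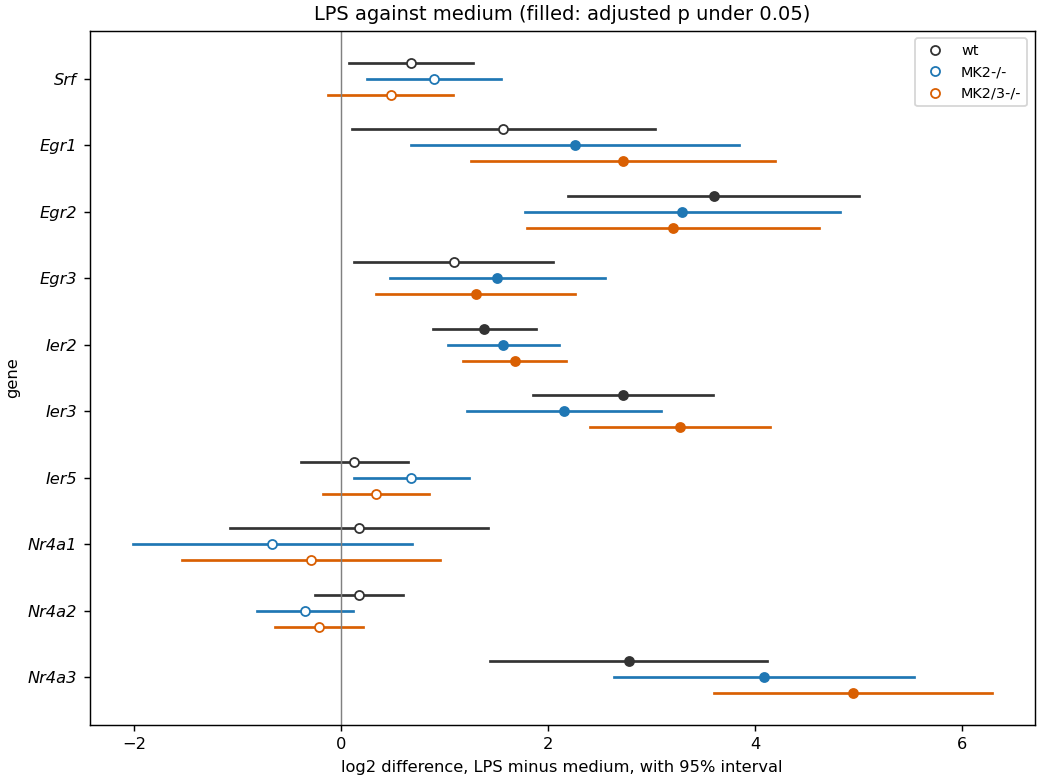
The log2 difference between LPS and medium with its 95% interval is plotted for each gene and genotype, filled where the adjusted p was under 0.05. *Egr2*, *Ier2*, *Ier3* and *Nr4a3* are filled in all 3 genotypes, and the intervals of *Nr4a1* and *Nr4a2* include 0.

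Once the group means were removed, the levels of *Srf*, *Egr1*, *Egr3* and *Nr4a1* varied together over the 23 arrays. Pearson's r was 0.744 for *Srf* with *Egr1*, 0.76 for *Srf* with *Egr3*, 0.838 for *Egr3* with *Nr4a1* and 0.706 for *Egr1* with *Nr4a1*. *Nr4a3* ran the other way, with an r of -0.704 with *Nr4a1*, -0.666 with *Srf* and -0.598 with *Egr1*. *Ier2*, *Ier3* and *Ier5* gave coefficients from -0.237 to 0.356 with these 5 genes. *Egr2* gave 0.592 with *Nr4a1*, 0.506 with *Egr3*, 0.481 with *Egr1*, 0.322 with *Srf* and -0.342 with *Nr4a3*. *Egr3* was well above background only on the fourth LPS array of each knockout, and *Nr4a3* on no medium array. The coefficients of these 2 genes thus rest partly on signals near background. The arrays share cultures and slides, so that the coefficients are a description. In each knockout the fourth LPS array was the highest of its group for *Srf*, *Egr1*, *Egr3* and *Nr4a1* and the lowest for *Nr4a3*.

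Fibroblast markers varied widely between cultures and had lower medians in the knockouts. The median log2 difference of 3 fibroblast markers against wt BMDM was -2.32 for MK2-/- and -2.12 for MK2/3-/- cells in medium. After LPS it was -1.99 for both, and 0 of the 3 passed the adjusted threshold in limma. The log2 of the summed signal of 3 fibroblast markers ranged from 9.01 to 16.68. On LPS arrays *Col1a1*, a collagen of mesenchymal cells, read 14.03, 9.40, 12.11 and 13.20 for wt, 8.75, 7.84, 10.86 and 12.98 for MK2-/- and 7.20, 8.45, 11.57 and 13.57 for MK2/3-/- cells. The fourth *Col1a1* array was the highest in both knockouts, as it was for *Srf*, *Egr1*, *Egr2*, *Egr3* and *Nr4a1*, but in wt BMDM the first was the highest, as for none of these 5 genes. The second was the lowest in wt BMDM, as for *Srf*, *Egr1*, *Egr3* and *Nr4a1*, and in MK2-/- BMDM, as for *Srf*, *Egr3* and *Nr4a1*. In MK2/3-/- BMDM the first was the lowest, as for *Egr1*, while *Srf*, *Egr3* and *Nr4a1* were lowest in the second. *Dcn*, another fibroblast marker, read 4.99, 5.29, 2.44 and 5.42 for wt, 3.60, 5.09, 5.22 and 3.38 for MK2-/- and 4.49, 4.92, 2.27 and 4.44 for MK2/3-/- cells, with the fourth array the lowest in MK2-/- BMDM. *Col1a2* ranged from 8.69 to 16.35 over all arrays. On wt medium arrays the first was the highest for *Col1a1* (14.36), as for *Srf*, *Egr1* and *Egr3* but not for *Egr2* and *Nr4a1*. In both knockouts the medium array of the fourth culture was the highest for *Col1a1* and *Srf*. That was also so for *Egr1* in MK2-/- BMDM alone, and in neither knockout for *Egr2*, *Egr3* and *Nr4a1*. The part of these markers in the levels of the 10 genes, or in their differences between genotypes, was not tested.

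After LPS none of the 10 genes differed between genotypes at an adjusted p under 0.05 in limma by the probes used, although the second *Ier5* probe did. At an unadjusted p under 0.05, 3 differed for MK2-/- against wt, 2 for MK2/3-/- against wt and 1 for MK2/3-/- against MK2-/- cells. The methods' t-test gave 1, 0 and 1 unadjusted and 0 in each adjusted. Of all genes 0.0302%, 1.64% and 0.158% passed in limma with adjustment and 7.5%, 13.5% and 7.94% without it. No such share is given for the other test.

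*Nr4a3* had the largest of these differences. It was higher in MK2/3-/- than in wt BMDM after LPS by 2.19 ± 0.64 (unadjusted p = 0.00285, adjusted p = 0.099) and in MK2-/- than in wt BMDM by 1.44 ± 0.64 (unadjusted p = 0.0369, adjusted p = 0.645), with overlapping arrays in both. The first difference passed without the second wt LPS array (2.89, adjusted p = 0.013), without the fourth MK2/3-/- LPS array (2.68, adjusted p = 0.0341) and with the letter of the array names as a term in the fit (adjusted p = 0.0313). By the probes used and without culture blocks, only *Nr4a3* of the 10 genes differed in its LPS response at an unadjusted p under 0.05. The difference was 2.17 ± 0.905 between MK2/3-/- and wt BMDM (limma unadjusted p = 0.0273, adjusted p = 0.99), with medium levels not well above background. For this interaction 0.0113% of all genes passed adjusted and 4.55% unadjusted. For the interactions of MK2-/- against wt and of MK2/3-/- against MK2-/- cells none of the 10 genes passed either way in limma without culture blocks, where 0.00377% and 0% of all genes passed adjusted and 1.92% and 2.89% unadjusted.

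*Ier3* after LPS was lower in MK2-/- than in both other genotypes at unadjusted p alone. Against wt BMDM the difference was -0.90 ± 0.414 (unadjusted p = 0.0421, adjusted p = 0.648). MK2/3-/- BMDM exceeded MK2-/- BMDM by 1.07 ± 0.414 (unadjusted p = 0.0188, adjusted p = 0.49), and all their LPS arrays lay above all of those of MK2-/- BMDM, as for 2.06% of all genes. The LPS responses of these 2 genotypes differed by 1.12 (95% interval -0.158 to 2.40, unadjusted p = 0.0825), and with cultures as blocks this passed the unadjusted threshold (unadjusted p = 0.0437, adjusted p = 1). MK2/3-/- and wt BMDM differed by 0.16 after LPS (95% interval -0.706 to 1.03).

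*Ier5*, by the probe used, was higher after LPS in MK2-/- than in wt BMDM by 0.76 ± 0.246 (unadjusted p = 0.00592, adjusted p = 0.478), with no overlap, as for 2.19% of all genes. *Ier2* was higher in MK2/3-/- than in wt BMDM by 0.63 ± 0.237 (unadjusted p = 0.0153, adjusted p = 0.223). For *Srf*, *Egr1*, *Egr2*, *Egr3*, *Nr4a1* and *Nr4a2* the 95% intervals included 0 in each of the 3 comparisons. Between MK2/3-/- and wt BMDM the interval was -0.434 to 0.416 for *Nr4a2*, -0.747 to 0.456 for *Srf*, -0.728 to 2.09 for *Egr2*, -1.95 to 0.547 for *Nr4a1* and -0.895 to 2.04 for *Egr1*.

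**Figure D5:**
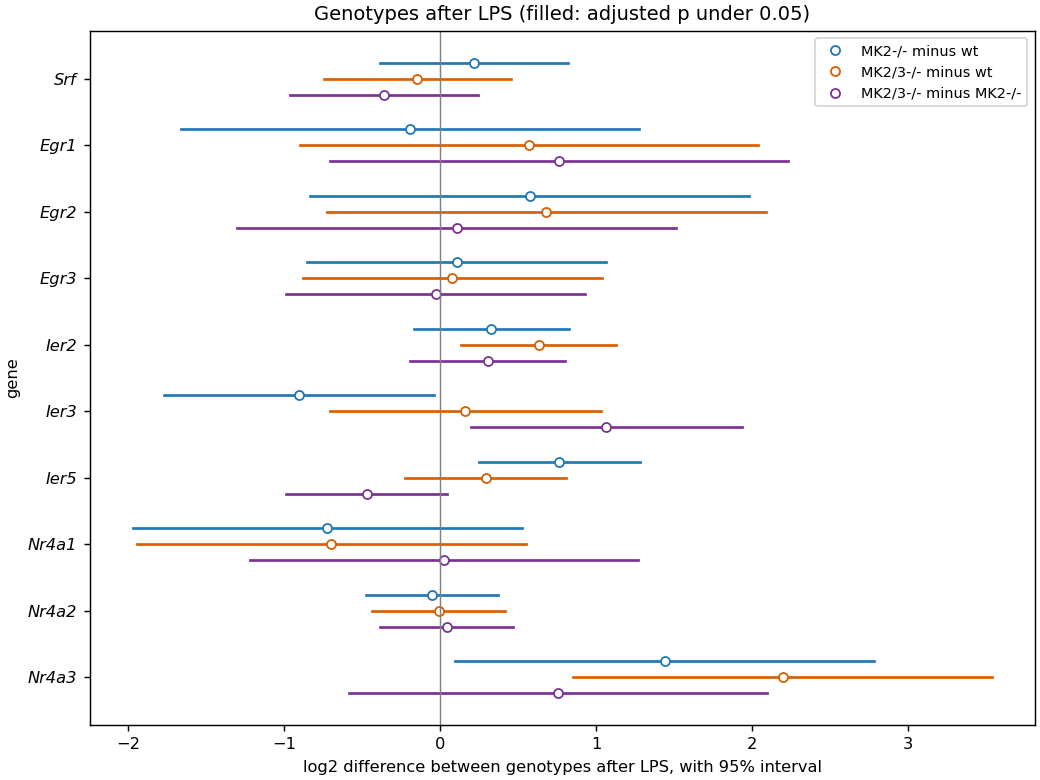
The log2 difference between genotypes after LPS with its 95% interval is plotted for each gene, filled where the adjusted p was under 0.05. No point is filled, and the intervals exclude 0 for *Nr4a3* in both knockouts against wt, *Ier2* in MK2/3-/- against wt, *Ier5* in MK2-/- against wt, and *Ier3* in MK2-/- against wt and against MK2/3-/- cells.

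In medium none of the 10 genes differed between genotypes at an adjusted p under 0.05 in limma, where 0.00754%, 0.0792% and 0.0453% of all genes did for MK2-/- against wt, MK2/3-/- against wt and MK2/3-/- against MK2-/- BMDM. By the probes used, the counts at an unadjusted p under 0.05 were 1, 0 and 0, and by the methods' t-test 0, 1 and 0. Of all genes 3.4%, 4.66% and 3.62% passed unadjusted in limma, and no such share is given for the other test. *Nr4a2* was the 1 gene of the 10 in limma, higher in MK2-/- than in wt BMDM by 0.47 ± 0.22 (unadjusted p = 0.0462, adjusted p = 1). All *Ier2* arrays in medium were higher in MK2/3-/- than in wt BMDM, by 0.34 ± 0.237 (adjusted p = 1), as for 2.51% of all genes.

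Over all genes 8.16%, 8.41% and 11.9% rose and 8.78%, 9.98% and 12.8% fell in wt, MK2-/- and MK2/3-/- cells, against which the counts of each gene list stand. Of 3 genes with names close to those of the 10, 1 rose and 1 fell in wt and in MK2/3-/- BMDM, and 1 rose and 2 fell in MK2-/- BMDM. *Egr4*, another EGR factor, was not well above background in medium (1.66 to 2.12) and rose to between 5.06 and 7.90 over all LPS arrays (adjusted p = 1.66e-06 in wt BMDM). *Ier5l*, a paralog of *Ier5*, fell from between 12.19 and 13.83 in medium to between 8.85 and 11.05 after LPS (log2 difference -3.11 in wt BMDM, adjusted p = 2.02e-05). *Ier3ip1*, which encodes a protein that binds IER3, fell by 0.50 in MK2-/- BMDM (adjusted p = 0.00802). *Nab1*, a corepressor that binds EGR factors, rose by 1.12 for wt, 0.80 for MK2-/- and 0.91 for MK2/3-/- cells, and the other corepressor listed, *Nab2*, did not pass in any genotype.

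Of 6 SRF cofactors, 2 rose and 0 fell in wt, 2 rose and 0 fell in MK2-/- and 3 rose and 0 fell in MK2/3-/- BMDM. Those called in at least 1 genotype were *Elk3*, *Elk4* and *Mrtfb*, all upward. *Mrtfb*, an actin-regulated coactivator, rose by 2.42 in wt BMDM (adjusted p = 0.00146) and *Elk3*, an ERK-regulated partner of SRF, by 0.80 (adjusted p = 0.00772). Of 9 kinases upstream of SRF and CREB, 5 rose and 0 fell in wt, 5 rose and 1 fell in MK2-/- and 5 rose and 1 fell in MK2/3-/- BMDM. Those called in at least 1 genotype were *Map2k1*, *Rps6ka3*, *Rps6ka4*, *Rps6ka5* and *Map3k8* upward and *Rps6ka1* downward. *Map3k8*, which activates the ERK pathway after LPS, rose by 2.86 in wt BMDM (adjusted p = 4.91e-06) and *Rps6ka5*, a CREB kinase, by 1.04 (adjusted p = 0.00418).

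Of 6 CREB factors and coactivators, 2 rose and 1 fell in wt, 2 rose and 1 fell in MK2-/- and 3 rose and 1 fell in MK2/3-/- BMDM. Those called in at least 1 genotype were *Creb1*, *Crem* and *Crtc2* upward and *Crtc1* and *Crtc3* downward. *Creb1* itself rose by 1.49 in wt BMDM (adjusted p = 6.57e-06) and the coactivator *Crtc2* by 1.49 (adjusted p = 1.08e-08), while *Crtc1* fell by 1.04 (adjusted p = 0.0174). Of the 3 retinoid X receptors, partners of NR4A proteins, *Rxrb* fell by 1.23 for wt (adjusted p = 0.00136), by 1.07 for MK2-/- and by 1.27 for MK2/3-/- cells. *Rxrg* passed upward in wt BMDM (adjusted p = 0.0331), with 2 of 4 LPS arrays and no medium array well above background.

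Of 14 actin-regulated SRF targets, 1 rose and 0 fell in wt, 2 rose and 0 fell in MK2-/- and 3 rose and 0 fell in MK2/3-/- BMDM, so that 1 of 14 in wt BMDM stood against 8.16% of all genes. Those called in at least 1 genotype were *Tagln2*, *Tpm1* and *Zyx*, all upward. The median log2 difference of the 14 was -0.01, 0.25 and 0.12, against 0.00539, -0.0099 and -0.0229 over all genes. *Tpm1*, a tropomyosin, rose by 1.05 in wt BMDM (adjusted p = 0.00698), and *Tagln2*, an actin-binding protein, by 1.38 in MK2-/- BMDM (adjusted p = 0.00836).

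Of 14 other growth factor-induced immediate-early genes, 7 rose and 1 fell in wt, 7 rose and 1 fell in MK2-/- and 9 rose and 2 fell in MK2/3-/- BMDM. Those called in at least 1 genotype were *Junb*, *Dusp1*, *Zfp36*, *Mcl1*, *Plk2*, *Klf6*, *Maff*, *Atf3* and *Gem* upward and *Fos* and *Plk3* downward. In wt BMDM *Gem*, a small GTPase well above background on 1 of 4 medium arrays, went from between 2.25 and 4.52 to between 9.34 and 10.79 (adjusted p = 4.02e-09). *Maff*, a small MAF factor, rose there by 5.52 (adjusted p = 1.28e-09) and *Dusp1*, a MAP kinase phosphatase, by 2.58 (adjusted p = 3.12e-06). *Fos*, itself a classic SRF target, fell by 3.14 for wt, by 3.64 for MK2-/- and by 3.04 for MK2/3-/- cells.

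Of the 57 genes of these lists 3 differed between genotypes after LPS at an adjusted p under 0.05, each higher in MK2/3-/- than in wt BMDM, where 1.64% of all genes passed. *Plk2*, a polo-like kinase, was higher by 1.63 ± 0.297 (adjusted p = 0.00889), *Atf3*, a stress factor that binds CREB-type sites, by 1.40 ± 0.255 (adjusted p = 0.00886) and *Crtc2* by 0.65 ± 0.113 (adjusted p = 0.0058). The LPS response itself differed between these genotypes at an unadjusted p under 0.05 for *Atf3* (log2 difference 1.06, unadjusted p = 0.00868, adjusted p = 0.796) and *Crtc2* (0.34, unadjusted p = 0.0461, adjusted p = 1).

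Over the 23 arrays, among 13310 genes with a symbol and no missing value that were well above background on every array of at least 1 group, those most like *Egr1* by Pearson correlation were *Elk3* (0.884), *Myo9a* (0.884) and *Tmem88* (0.869). Those most like *Ier3* were *Ccl7* (0.947), *Pafah1b1* (0.945) and *Coq10b* (0.941), and those most like *Nr4a1* were *Mdm2* (0.822), *Nfe2l2* (0.797) and *Nabp1* (0.794). The arrays share groups and cultures, so that a shared response to LPS alone gives a high coefficient.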

How the data were processed

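RNA of 23 BMDM samples was hybridized to Agilent one-colour arrays. The deposited scanner files hold signal intensities that the authors extracted with Feature Extraction 11.0.1.1, which subtracts background; they were used as given, without flagged and control spots. A deposited table of quantile-normalized log2 values by the authors served as an alternative. Intensities were put on a log2 scale, replicate spots were averaged, and the arrays were quantile normalized (R 4.3.3, limma 3.58.1, data.table version 1.17.8). Accessions were named through RefSeq tables (GRCm38.p6), and a gene with several probes was read by the one that LPS raised most in wt BMDM.

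Differences come from limma fits of all 6 groups over 26512 genes, two-sided, with Benjamini-Hochberg adjustment at 0.05. These p-values measure the spread between cultures. Pairs of groups were also compared by exact permutation tests, whose smallest p is 0.0286, and by the methods' t-test. The number of arrays limits the precision. The fit was tested on simulated data.

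Medium and LPS arrays of a genotype whose array names carry the same letter were taken as 1 culture, which no label states. Their deviations from the group means correlated with r from 0.0626 to 0.561 (11 pairs). Over genes well above background on all arrays r was 0.36 to 0.774, and culture was used as a block in an alternative fit. Over the latter genes, arrays of the same letter and treatment in different genotypes gave r from -0.111 to 0.816 (22 pairs, median 0.37). A term for the letter was used in another alternative fit, and what a letter shares across genotypes is not stated.

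The 10 genes and the lists were chosen with earlier results of these data known. Genes named are the 10 members, *Mapkapk2* and *Mapkapk3*, from each list at most 4 of the called genes, taken by size of change, other called list genes by name only, and the 3 genes most correlated with *Egr1*, *Ier3* and *Nr4a1*. Other scalings, background corrections, floors, filters, probe rules and samples left out were tried as alternatives.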

Additional observations from a re-analysis of the deposited data

Results flagged for a closer look

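Of 50 groups of 4 arrays tested, 3 held a value whose gap to its nearest neighbour took a share of the group's range above Dixon's critical value, where chance gives about 1 in 20 groups. *Srf* in wt BMDM after LPS had a gap of 0.924 of the range below its other arrays, from the second culture. *Egr3* in MK2/3-/- BMDM after LPS had a gap of 0.839 above them, from the fourth culture, whose array was the only one of the group well above background. *Ier5* in MK2/3-/- BMDM after LPS had a gap of 0.858 below them, from the third culture. The causes were not tested.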

How the results depend on the processing

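The genes called after LPS numbered 3 to 5 in wt, 5 to 8 in MK2-/- and 5 to 6 in MK2/3-/- cells over 13 alternatives, and 4 to 5, 4 to 7 and 5 to 6 with 1 array left out. Between MK2/3-/- and wt cells after LPS, 1 gene was called with the mean over all probes (*Ier5*) and 1 with the replicate block across genotypes, a term for the letter in the array names (*Nr4a3*). With 1 array left out this count was 0 to 1, and it was 1 without the second wt or the fourth MK2/3-/- LPS array (*Nr4a3*). With the replicate block, cultures as blocks, 8 genes were called in MK2-/- cells after LPS in place of 6 (*Srf* and *Ier5* were added), and no other count of genes called changed.

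The direction of small LPS differences turned. *Ier5* in wt cells gave -0.26 with the mean over all probes, and -0.041 to 0.25 with 1 array left out. *Nr4a1* in wt cells gave -0.43 without the fourth cultures, and -0.19 to 0.49 with 1 array left out. *Nr4a2* in wt cells gave -0.013 to 0.35, and *Nr4a1* in MK2/3-/- cells -0.87 to 0.033, with 1 array left out. The causes were not tested. Scaling to the 75th percentile moved the median LPS difference of all genes to 0.147 in wt and 0.197 in MK2-/- cells, and that of the difference between MK2/3-/- and wt cells after LPS to 0.15. In the fit with culture blocks the *Ier3* interaction of MK2/3-/- against MK2-/- cells passed an unadjusted p of 0.05. *Egr3* was left out by the filter on dim probes, and its calls were lost in several alternatives. The t-test gave no interactions. The settings without the fourth cultures and without the 2 arrays that lacked a gradient fit were chosen after seeing the data.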
